A study of Mus musculus with 12 samples.

Results

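RNA levels in colonic adenomas of ApcMin mice were compared between mice that carry 1 N151A allele of Tdg and mice with normal Tdg. The heterozygotes are Tet1+/+ TdgN151A/+ ApcMin/+, called Tdg-heterozygous here, and the controls are Tet1+/+ Tdg+/+ ApcMin/+, with 3 libraries each. All libraries of these 2 genotypes were taken, 6 of the 12 in the series, with every gene that reached 1 FPKM in at least 3 of the 12 libraries, 15150 of the 25705 genes listed. FPKM is a level that is adjusted for the length of the transcript and for how deeply the library was sequenced. The mice were C57BL/6J and were killed at 150 to 160 days, and every group, the controls included, carries ApcMin and keeps at least 1 normal Tdg allele. The other 6 libraries, Tet1+/- TdgN151A/+ ApcMin/+ (double-heterozygous) and Tet1-/- Tdg+/+ ApcMin/+ (Tet1-null), entered the fit to help estimate the spread. Whole adenomas were dissected, so a level can come from tumour epithelium, stroma or blood cells, and fewer cells of a type cannot be told apart from less RNA per cell. The labels do not say that each library is a separate animal, so the p-values measure the spread between these libraries.

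TDG is a DNA glycosylase. It cuts thymine or uracil out of mispairs with guanine, and it removes the oxidised forms of 5-methylcytosine that TET enzymes make, after which base excision repair puts in an unmodified cytosine. N151A replaces an asparagine of the active site and abolishes catalysis, so a heterozygote still makes normal TDG from the other allele. APC restrains beta-catenin. In ApcMin adenomas the loss of APC function leaves the Wnt pathway active, and Wnt target genes mark the tumour cells.

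The sequence around the changed codon is shown first because the genotype turns on it. The capitals mark the N151A codon, AAC for asparagine, in the reference Tdg transcript (GENCODE M21, GRCm38, the build also called mm10, chr10:82641537-82642062, plus strand). That span crosses an intron, and the codon lies at chr10:82642030-82642032. The coding sequence has 421 codons.
Tdg, N151A codon: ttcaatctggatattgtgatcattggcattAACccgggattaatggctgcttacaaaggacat

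Gm9855 and Gm15920 are processed pseudogenes, copies of spliced mRNA inserted elsewhere in the genome, and they are shown beside their parent genes because they were the clearest differences between the groups. Gm9855 (chromosome 10, 42054113 to 42055306) is 1194 bases long and matches Tdg from base 73 of its coding sequence with 99.2% identity. Gm15920 (chromosome 5, 130188395 to 130188796) is 402 bases long and matches Ndufa12, a gene for a subunit of respiratory complex I, with 99.5% identity. The capitals mark the bases that differ. Positions are counted from base 1 of the pseudogene, with the parent's base first and the pseudogene's base last: A855G, G877A and G879C in the first pair, A99G in the next and T378C in the last.
Tdg, chr10:82647313-82647357, plus strand: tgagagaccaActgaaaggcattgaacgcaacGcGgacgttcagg
Gm9855, chr10:42054418-42054462, minus strand: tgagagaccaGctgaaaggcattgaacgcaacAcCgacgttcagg
Ndufa12, chr10:94199976-94200020, plus strand: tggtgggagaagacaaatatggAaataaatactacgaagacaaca
Gm15920, chr5:130188471-130188515, plus strand: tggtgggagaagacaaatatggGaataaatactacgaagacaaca
Ndufa12, chr10:94220815-94220859, plus strand: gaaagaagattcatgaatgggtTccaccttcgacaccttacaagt
Gm15920, chr5:130188750-130188794, plus strand: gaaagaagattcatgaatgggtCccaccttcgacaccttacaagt
Over its whole length Gm9855 differs from Tdg at 9 positions (A98C, A855G, G877A, G879C, T993C, T1056C, G1084A, A1090G and G1101A), and its bases that align with the N151A codon read AAC. Gm15920 differs from Ndufa12 at the 2 positions shown. A read of 75 nt tells a pseudogene from its parent only where it covers such a position, so the values of both are uncertain.

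Gm22692, annotated as a miRNA, also passed the test. It matches 259 other annotated genes with at least 95% identity over at least 119 bases, so it is a repeated sequence and its value is uncertain too.

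Libraries are named by the number of their column in the deposited table, and values are listed in the order 0, 1 and 2. Read counts were not part of the table, so the depth is unknown. The sum of FPKM was 736991, 677642 and 977282 in the Tdg-heterozygous libraries and 803368, 671494 and 728728 in the controls. Tdg-heterozygous library 2 stood apart. It was the one farthest from the median of its group for 58.9% of genes, and the median SD over genes, in log2(FPKM + 1), was 0.32 in the Tdg-heterozygous group, 0.16 in its libraries 0 and 1 and 0.19 in the controls. Control library 0 was the farthest of its group for 40.1% of genes and, among the controls, had the most RNA of goblet cell and colonocyte genes. Xist, which marks female samples, was above 10 FPKM in 2 of 3 libraries of each group. Over 5 tested genes of a list of Xist and Y-linked genes, the mean deviation from the control mean was taken in log2(FPKM + 1). It was -0.53, 1.26 and -0.65 in Tdg-heterozygous libraries and 1.15, -0.54 and -0.61 in controls. Tdg-heterozygous library 1 and control library 0 were thus apart in their groups. The part of sex in results that rest on either library was not tested. The labelled tissue showed its defining epithelial RNA, with Epcam at 1031, 870.5 and 1856 FPKM in Tdg-heterozygous and 1186, 992 and 994 FPKM in control libraries. The intestinal transcription factor gene Cdx2 was low except in control library 0, at 1.78, 1.96 and 6.07 FPKM against 19.7, 1.36 and 2.1 FPKM.

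With limma, 3 genes were called at an adjusted p under 0.05, 0.0198% of the 15150 tested. All 3 were higher in Tdg-heterozygous adenomas, and 0 (0%) were lower. The unadjusted p was under 0.05 for 136 genes (0.898%), 67 higher and 69 lower, while 757.5 would be expected if no gene differed and the p-values were even. The 3 Tdg-heterozygous values and the 3 control values did not overlap for 608 genes (4.01%), of which 244 (1.61%) were higher and 364 (2.4%) lower. Every gene tested other than Gm9855, Gm15920 and Gm22692 had an adjusted p of 1. The differences given for other genes are therefore values, and none of them passed the test. All log2 differences are in log2(FPKM + 1), Tdg-heterozygous minus control.

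Gm9855 had 7.27, 6.96 and 7.11 FPKM in Tdg-heterozygous libraries, against 0.0187, 0 and 0.0434 FPKM in controls. The means were 7.11 ± 0.155 and 0.0207 ± 0.0218 FPKM (SD, n = 3 each), a log2 difference of 2.99 with an SE of 0.132 and an adjusted p of 9.26e-06 in limma. The Tdg-heterozygous values lay close together and far above all controls. Double-heterozygous libraries, which also carry Tdg N151A, had 8.07, 7.72 and 7.62 FPKM, and Tet1-null libraries were listed at 0. Another Tdg pseudogene, Gm5597, was listed at 0 in all Tdg-heterozygous libraries and at 0, 0.0448 and 0 FPKM in controls. Tdg itself was at 25.8, 29.8 and 30.7 FPKM in Tdg-heterozygous libraries, against 29.9, 37.9 and 34.8 FPKM in controls, with a log2 difference of -0.24 that did not pass. A heterozygous change of 1 amino acid is not visible in a gene-level value, so these numbers do not check the genotype.

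Gm15920 had 12.7, 9.74 and 11.8 FPKM in Tdg-heterozygous libraries, against 0.258, 0.277 and 0 FPKM in controls. The log2 difference was 3.4 with an SE of 0.18 and an adjusted p of 2.67e-05 in limma, and the groups were far apart. Double-heterozygous libraries had 9.31, 9.75 and 11.9 FPKM and Tet1-null libraries 0.281, 0.259 and 0.533 FPKM of Gm15920, so the carriers of Tdg N151A were again apart from the libraries with normal Tdg. Its parent gene Ndufa12, which lies on chromosome 10, had 133, 101 and 134 FPKM in Tdg-heterozygous libraries, against 127, 131 and 142 FPKM in controls. Those ranges overlapped.

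Gm22692 was listed at 5.78, 7.26 and 9.65 FPKM in Tdg-heterozygous libraries and at 0 in all 3 controls, with an adjusted p of 0.0487 in limma. Its call was lost when any 1 of the 6 libraries was left out (adjusted p from 0.183 to 0.335). The near-identical Gm25534 had 5.67, 7.13 and 9.47 FPKM in Tdg-heterozygous libraries and was also listed at 0 in all controls, and the ratio of Gm22692 to Gm25534 was 1.02 in each Tdg-heterozygous library. Here the pattern did not follow Tdg N151A: Gm22692 was at 7.14, 7.19 and 13.5 FPKM in double-heterozygous and 7.42, 20.8 and 7.45 FPKM in Tet1-null libraries, and the controls alone were at 0.

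**Figure D1:**
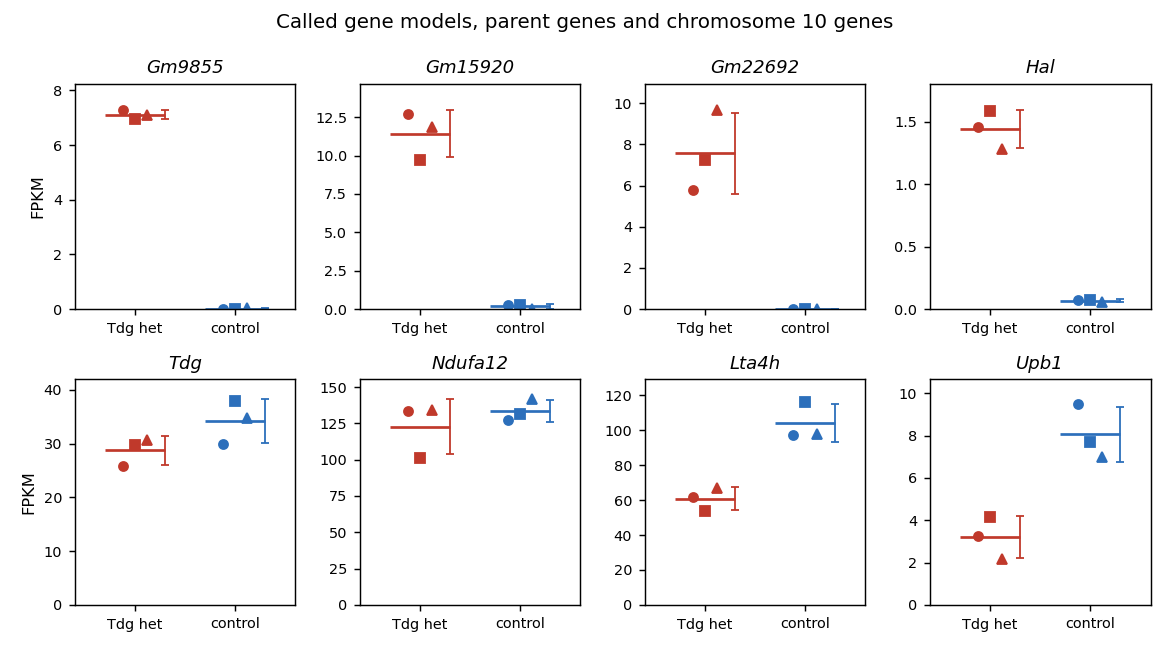
Level in FPKM of the 3 called genes, of the parent genes Tdg and Ndufa12 and of Hal, Lta4h and Upb1, in Tdg-heterozygous libraries (red, left) and controls (blue, right). Circles, squares and triangles are libraries 0, 1 and 2, the line is the mean and the bar the SD; Gm9855 sits near 7 FPKM in all 3 Tdg-heterozygous libraries and near 0 in the controls, while the Ndufa12 groups overlap.

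Protein-coding genes of chromosome 10 come next because Tdg lies on it (82629828 to 82650799). Hal encodes histidine ammonia-lyase, which turns histidine into urocanate. It lies 10.84 Mb from Tdg and had 1.46, 1.59 and 1.28 FPKM in Tdg-heterozygous libraries, against 0.0737, 0.0747 and 0.0581 FPKM in controls (log2 difference 1.19, SE 0.246). Its groups did not overlap, and it was at 2.21, 1.19 and 0.542 FPKM in double-heterozygous and 0.0787, 0 and 0.149 FPKM in Tet1-null libraries. The neighbouring Lta4h encodes leukotriene A4 hydrolase, which makes the neutrophil attractant leukotriene B4. Lta4h had 61.9, 53.6 and 67.1 FPKM in Tdg-heterozygous libraries, against 97.4, 117 and 98 FPKM in controls (log2 difference -0.76), so every Tdg-heterozygous library was lower. Upb1, for a pyrimidine-breaking enzyme, lies 7.19 Mb from Tdg and had 3.23, 4.16 and 2.19 FPKM in Tdg-heterozygous libraries, against 9.5, 7.68 and 7.0 FPKM in controls (log2 difference -1.13). These 3 genes were among the 12 protein-coding genes with the smallest p whatever their position. Symbols made of Gm and a number or ending in Rik were left out there. Gm15915, an antisense gene at 93674218 to 93683322 named after its values were seen, was too low for the filter and was called only when no filter was used. It had 0.654, 0.549 and 0.612 FPKM in Tdg-heterozygous libraries, against 0.0662, 0 and 0.103 FPKM in controls, and without a stranded kit its reads cannot be told from those of overlapping genes.

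Of 61 protein-coding genes tested within 2 Mb of Tdg, with the same symbols left out, 0 had an unadjusted p under 0.05 in limma. The log2 differences of the 61 genes ran from -0.56 to 0.71 and their median was -0.046. The groups did not overlap for 1 of them, Ncln, which encodes a membrane protein of the endoplasmic reticulum and had 40.3, 33.8 and 39.7 FPKM in Tdg-heterozygous libraries, against 43.8, 43.7 and 43.3 FPKM in controls. On the whole of chromosome 10 the groups did not overlap for 24 of 672 genes (3.57%), near the 4.01% over all genes.

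The enzymes that write and erase DNA methylation showed no large difference. Among the erasers, Tet2 had 3.84, 5.24 and 7.16 FPKM in Tdg-heterozygous libraries, against 4.73, 5.05 and 4.55 FPKM in controls. Tet3 had 12.3, 16 and 11.4 FPKM, against 16.3, 15.6 and 13.6 FPKM in controls, and Tet1 was too low to be tested, at 0.356, 0.492 and 0.223 FPKM against 0.403, 0.478 and 0.422 FPKM. The groups overlapped for each of the 3. Mbd4, the other glycosylase for thymine in mispairs with guanine, had 2.96, 2.96 and 1.41 FPKM in Tdg-heterozygous libraries, against 2.17, 3.42 and 2.75 FPKM in controls. Apc had 10.3, 17.9 and 16.3 FPKM, against 14.2, 15.5 and 11.6 FPKM in controls. Of the methyltransferases, the maintenance enzyme gene Dnmt1 had 15.1, 16.5 and 16.7 FPKM in Tdg-heterozygous libraries, against 15.7, 25.6 and 17.3 FPKM in controls. The de novo enzyme gene Dnmt3b had 2.66, 2.72 and 1.15 FPKM, against 2.78, 4.03 and 2.74 FPKM in controls. Dnmt3b was lower in every Tdg-heterozygous library than in any control, by little in libraries 0 and 1. Its relative Dnmt3a had 8.48, 9.83 and 6.78 FPKM in Tdg-heterozygous libraries, against 9.09, 13 and 11.6 FPKM in controls. Over the whole list of DNA methylation genes, 7 of 19 tested were higher and 12 lower, with a median log2 difference of -0.092, beside -0.014 over all genes.

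Base excision repair completes what TDG begins. Apex1, the endonuclease that cuts the backbone at the emptied site, had 60.5, 52.3 and 24.5 FPKM in Tdg-heterozygous libraries, against 41.9, 53.8 and 55.9 FPKM in controls. Parp1, a sensor of DNA breaks, had 22.5, 21.8 and 11.4 FPKM in Tdg-heterozygous libraries, against 23.4, 26.1 and 23.9 FPKM in controls. The Parp1 groups did not overlap, and the difference came mostly from library 2 (log2 difference -0.44, and -0.14 without it). Neil3, another glycosylase, had 4.69, 6.44 and 6.01 FPKM in Tdg-heterozygous libraries, against 5.42, 9.85 and 8.59 FPKM in controls. Of 19 repair genes 17 were lower (median -0.13), and without library 2 the median was 0.016. A list of mismatch repair genes together with Mgmt gave 8 of 9 lower (median -0.14, or 0.046 without library 2). In that list Mgmt, the repair enzyme for alkylated guanine that is often methylated in colon cancer, was lower in every Tdg-heterozygous library, 2.04, 1.74 and 2.31 FPKM against 4.62, 2.45 and 2.46 FPKM in controls (log2 difference -0.43, or -0.19 without control 0).

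Genes whose promoters are known to be methylated were counted as lists, since the table holds RNA levels and no methylation values. Of 23 imprinted genes tested, 9 were higher and 14 lower (median -0.074), and the groups overlapped for all of them. H19, an imprinted RNA expressed from the maternal allele, had 3.87, 1.69 and 3.36 FPKM in Tdg-heterozygous libraries, against 8.24, 2.68 and 7.46 FPKM in controls. Of 24 genes often methylated in colon cancer, 17 were lower (median -0.18, or -0.074 without library 2), and Mgmt was the member whose groups did not overlap. Cdkn2a, which encodes a cell-cycle inhibitor, had 25.6, 17.7 and 1.4 FPKM in Tdg-heterozygous libraries, against 25.6, 23.8 and 34.4 FPKM in controls. It was low in library 2 alone. Of 17 germline genes with methylated promoters, 2 passed the filter on low values, and one of them, Rhox5, had 6.71, 5.3 and 0.442 FPKM in Tdg-heterozygous libraries, against 4.6, 1.93 and 7.6 FPKM in controls.

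Of the 12 protein-coding genes with the smallest p, with Gm-number and Rik symbols left out, 8 were lower and 4 higher in value. Wdr62, for a spindle-pole protein, had 3.66, 3.06 and 2.37 FPKM in Tdg-heterozygous libraries, against 5.25, 6.85 and 5.32 FPKM in controls (log2 difference -0.76, or -0.64 without library 2). Dlgap5, for a protein of spindle assembly, had 9.22, 9.32 and 9.24 FPKM, against 10.8, 18.5 and 14 FPKM in controls (log2 difference -0.56). The groups did not overlap for either gene. The centrosome gene Cep85 had 21.8, 16.5 and 14 FPKM in Tdg-heterozygous libraries, against 109, 19.3 and 119.8 FPKM in controls, where library 1 was near the Tdg-heterozygous level. Without that control it was called, with a log2 difference of -2.67 and an adjusted p of 0.00735 in limma. The double-heterozygous libraries (24.9, 15.3 and 16.3 FPKM) and the Tet1-null libraries (18.7, 22.4 and 22.1 FPKM) were also low, so control libraries 0 and 2 were the ones apart. Tiam1, for an activator of the GTPase Rac, had 8.06, 6.16 and 7.29 FPKM in Tdg-heterozygous libraries, against 9.84, 16 and 9.69 FPKM in controls. The Wnt receptor gene Fzd9 had 0.536, 0.215 and 0.207 FPKM, against 1.93, 1.09 and 0.856 FPKM in controls, and the secretoglobin gene Scgb2b17 1.13, 0.478 and 0 FPKM, against 4.33, 2.15 and 1.97 FPKM. All 3 were lower in every Tdg-heterozygous library. The other genes of this rule are Hal, Lta4h, Upb1, Mmp8, Chi3l3 and Ly6c2.

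Mitosis genes were lower in value as a list. Of 28 tested, 28 were lower and 0 higher, with a median log2 difference of -0.30, beside -0.014 over all genes, of which 7138 were higher and 8000 lower. The kinase gene Plk1 had 27.1, 23.3 and 23.3 FPKM in Tdg-heterozygous libraries, against 29.1, 47 and 32.8 FPKM in controls. Ube2c, which marks mitotic proteins for destruction, had 66.4, 47.6 and 65.7 FPKM, against 66.5, 107 and 81.1 FPKM in controls. Prc1, a bundler of spindle microtubules, had 31.4, 29 and 32.1 FPKM in Tdg-heterozygous libraries, against 32.2, 60.2 and 44.3 FPKM in controls. Only for these 3 of the 28 genes did the groups not overlap, beside 2.4% of all genes that were lower in this way. In them control library 0 lay just above the Tdg-heterozygous libraries and controls 1 and 2 well above them. Over the list, control library 0 was the lowest. Its mean deviation from the control mean was -0.48, against -0.34, -0.36 and -0.26 in Tdg-heterozygous libraries. For Aurkb, a kinase of chromosome segregation, the values were 22.9, 23.4 and 23.2 FPKM in Tdg-heterozygous libraries and 21.5, 43 and 30.2 FPKM in controls, so control library 0 was the lowest of all 6. Top2a, which untangles chromosomes, had 123, 106 and 100.5 FPKM in Tdg-heterozygous libraries, against 96, 194 and 162 FPKM in controls, with the same low control. The median of the list was -0.36 without Tdg-heterozygous library 2, -0.53 without control 0 and -0.13 without control 1, so the size of the difference rested on control library 1. DNA replication genes had a smaller difference, 25 of 26 lower with a median of -0.13. Without control 1 that median was 5.98e-05. Gins2, for a subunit of the replicative helicase, was the member whose groups did not overlap, at 19.8, 17.5 and 19.6 FPKM in Tdg-heterozygous and 19.9, 24.7 and 23.5 FPKM in control libraries.

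Among protein-coding genes at 5 FPKM or more whose groups did not overlap, neutrophil markers gave 8 of the 12 largest positive differences. Symbols made of Gm and a number or ending in Rik were left out of this ranking. Of those, Gm3625, annotated as protein-coding, had 16.6, 20.2 and 26.1 FPKM in Tdg-heterozygous libraries and was listed at 0 in all controls. Its log2 difference of 4.43 did not pass in the fit of 12 libraries. Neutrophils are short-lived blood cells that enter inflamed tissue and carry granules of proteases and antimicrobial proteins. Of 25 neutrophil markers tested, 22 were higher and 3 lower in Tdg-heterozygous adenomas, with a median log2 difference of 1.61. For 11 markers all 3 Tdg-heterozygous values lay above all 3 controls and for 0 below, beside 1.61% and 2.4% of all genes, and 7 had an unadjusted p under 0.05 in limma. The summed level of the list was 1789.5, 2361 and 10717 FPKM in Tdg-heterozygous libraries, against 1221, 1038 and 1418 FPKM in controls. A large part of the control sums came from Ifitm1, whose values are given below. By the sums, library 2 carried most of the RNA. Without it the median was 0.59, with 24 of 25 higher, so the direction stayed and the size did not. Taken one library at a time, 14, 13 and 20 of the 25 markers lay above all controls in Tdg-heterozygous libraries 0, 1 and 2, beside 19.2, 21.1 and 37% of all genes.

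By role, granule proteins came first. Mmp8, the neutrophil collagenase, had 5.15, 11.2 and 14.3 FPKM in Tdg-heterozygous libraries, against 0.854, 0.693 and 0.869 FPKM in controls. Its log2 difference was 2.54 with an SE of 0.90, and 2.27 without library 2, so it was among the members least dependent on that library. Ngp, a protein of secondary granules, had 0.688, 13.1 and 6.29 FPKM in Tdg-heterozygous libraries, against 0.248, 0.104 and 0 FPKM in controls. The lactoferrin gene Ltf had 4.46, 7.22 and 3.08 FPKM, against 2.21, 1.99 and 3.05 FPKM in controls, with library 2 only just above the highest control. The cathelicidin gene Camp was too low to be tested, at 0, 1.83 and 0.732 FPKM against 0, 0 and 0.0853 FPKM. Ngp, Ltf and Camp were highest in library 1, not in library 2.

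The cytosolic calcium-binding proteins S100A8 and S100A9 form calprotectin, the most abundant protein of the neutrophil cytosol. S100a8 had 327, 712 and 3267 FPKM in Tdg-heterozygous libraries, against 109.8, 135 and 153 FPKM in controls (log2 difference 2.79, or 1.87 without library 2). S100a9 had 218, 426 and 2492 FPKM, against 73.3, 109.7 and 124 FPKM in controls. Retnlg, a resistin-like secreted protein of neutrophils, had 52.5, 109 and 385 FPKM in Tdg-heterozygous libraries, against 9.79, 16.9 and 9.92 FPKM in controls (log2 difference 3.36, or 2.58 without library 2). All 3 genes were higher in each Tdg-heterozygous library than in any control, and libraries 0 and 1 were well below library 2. The stefin-like gene Stfa2l1 and the gene 1100001G20Rik, also known as Wfdc21, had the same order. Stfa2l1 had 6.3, 7.47 and 53.9 FPKM, against 2.09, 2.96 and 3.78 FPKM in controls, and 1100001G20Rik had 9.45, 20.5 and 83.7 FPKM, against 3.77, 3.51 and 1.72 FPKM.

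Of the receptors, those for bacterial formyl peptides were Fpr1, with 3.29, 5.56 and 18.4 FPKM in Tdg-heterozygous libraries against 0.896, 1.06 and 2.34 FPKM in controls, and Fpr2, with 4.93, 9.95 and 30.8 FPKM against 1.51, 2.53 and 3.46 FPKM. Cxcr2, the receptor for CXC chemokines, had 2.07, 3.17 and 11.8 FPKM in Tdg-heterozygous libraries, against 1.04, 1.45 and 1.69 FPKM in controls. The groups did not overlap for these receptors. The receptor for the growth factor G-CSF, Csf3r, had 4.3, 4.19 and 31.1 FPKM in Tdg-heterozygous libraries, against 3.2, 4.56 and 5.74 FPKM in controls, so only library 2 was apart. Padi4 was lower in library 2, at 23.4, 19 and 6.83 FPKM against 17.6, 17.6 and 25 FPKM, as was Ifitm1, at 595, 531 and 142 FPKM against 577, 434 and 489 FPKM. These last genes show that library 2 was not higher for every marker of the list.

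**Figure D2:**
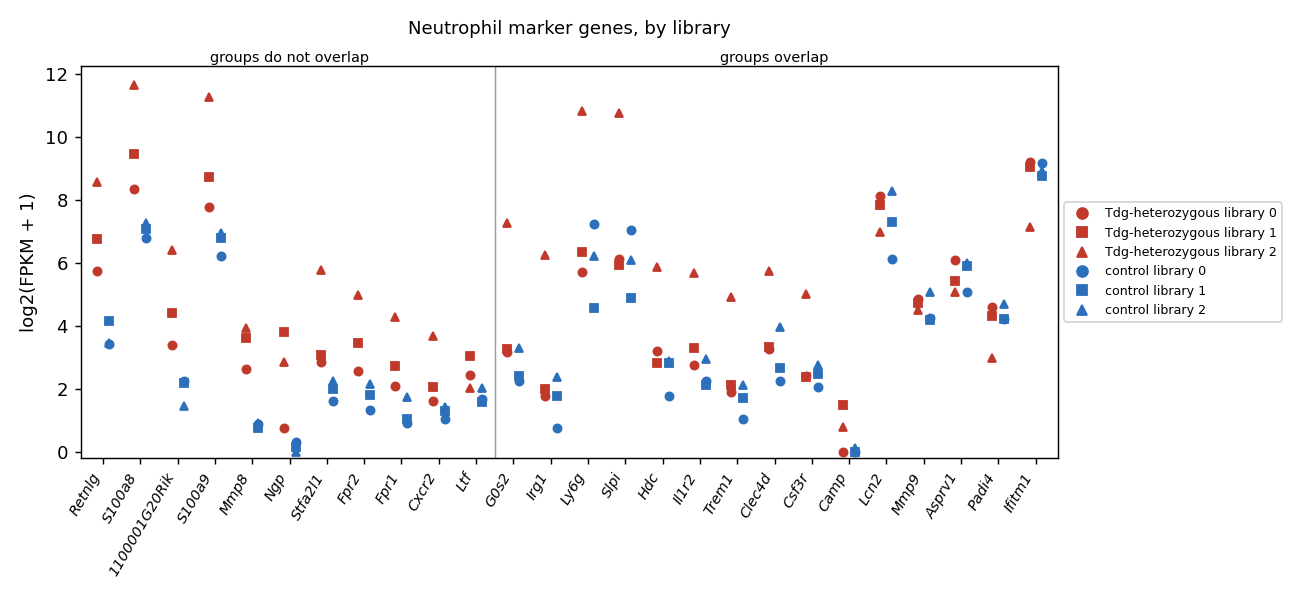
Level of 26 neutrophil marker genes in log2(FPKM + 1), Tdg-heterozygous libraries in red and controls in blue, with circles, squares and triangles for libraries 0, 1 and 2. On the left are the 11 genes whose groups do not overlap, where the red triangles of library 2 are mostly highest, and on the right those that overlap.

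Ligands that draw or sustain neutrophils differed mainly in library 2. Cxcl2 had 36.9, 37.8 and 803 FPKM in Tdg-heterozygous libraries, against 15.8, 39 and 63.1 FPKM in controls, and Cxcl5 had 107, 141 and 529 FPKM, against 63.5, 116 and 137 FPKM. The macrophage and neutrophil chemokine gene Ccl3 had 4.91, 3.34 and 154 FPKM, against 1.58, 1.57 and 10.3 FPKM in controls, and Csf3, the gene of G-CSF, 0.536, 0.551 and 11.9 FPKM, against 0.367, 0.392 and 1.53 FPKM. Of 13 such ligands tested, 10 were higher (median 0.48), and the groups overlapped for all of them. Without library 2, 7 were higher and 6 lower (median 0.083). In Tdg-heterozygous libraries 0, 1 and 2, 0, 2 and 9 of the 13 ligands lay above all controls, beside 19.2, 21.1 and 37% of all genes.

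Inflammatory cytokines and enzymes followed the ligands. Il1b, for interleukin 1 beta, had 27.1, 28.4 and 685 FPKM in Tdg-heterozygous libraries, against 18.1, 44.3 and 57.6 FPKM in controls, and Il6 had 1.32, 1.34 and 33.9 FPKM, against 0.988, 2.28 and 9.55 FPKM. Both were high in library 2 alone. Of 27 genes, 26 were higher (median 0.53), but 15 higher and 12 lower without library 2 (median 0.16). In 2 of them all 3 Tdg-heterozygous values lay above all controls, beside 1.61% of all genes. Nos2, the inducible nitric oxide synthase, had 12.6, 10.5 and 29 FPKM in Tdg-heterozygous libraries, against 3.25, 9.18 and 6.0 FPKM in controls, and Cd14, a receptor for bacterial lipopolysaccharide, 75.1, 82.1 and 279.7 FPKM, against 56.8, 70.9 and 74.3 FPKM.

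Acute-phase genes gave 2 of the 12 largest positive differences of the same ranking, and both rested in part on control library 0. Hp, for the haemoglobin-binding protein haptoglobin, had 85.8, 83.6 and 72 FPKM in Tdg-heterozygous libraries, against 8.5, 43.9 and 42.6 FPKM in controls (log2 difference 1.62, or 1.69 without library 2 and 0.88 without control 0). Saa3, for a serum amyloid A protein made by epithelium and macrophages, had 277, 185 and 391 FPKM, against 32.1, 148 and 165 FPKM in controls (log2 difference 1.54, or 1.28 without library 2 and 0.79 without control 0). In both genes control library 0 was well below the other controls. Every Tdg-heterozygous value lay above all controls, which was a condition of the ranking. Hp stands outside the gene lists and was named for its size. Of 18 epithelial antimicrobial and acute-phase genes, 15 were higher (median 0.47, or 0.18 without library 2).

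A few genes of young monocytes and myeloid cells were higher in each Tdg-heterozygous library, while the macrophage list had no direction that held in all libraries. Chi3l3, also known as Chil3, a chitinase-like protein of myeloid cells, had 6.09, 31.2 and 37.1 FPKM in Tdg-heterozygous libraries, against 1.17, 3.74 and 0.633 FPKM in controls (log2 difference 3.01, or 2.56 without library 2). The monocyte surface gene Ly6c2 had 2.1, 3.17 and 6.89 FPKM, against 0.794, 1.59 and 0.619 FPKM in controls, and the membrane protein gene Ifitm6 11.9, 28.5 and 28 FPKM, against 6.37, 6.84 and 6.12 FPKM. The groups did not overlap for any of the 3. The complement gene of macrophages C1qa had 73.5, 40.4 and 17.6 FPKM in Tdg-heterozygous libraries, against 42.1, 53.5 and 71.4 FPKM in controls, and Cd68, a lysosomal protein of macrophages, 22, 16.1 and 14.2 FPKM, against 13.7, 16.3 and 26.4 FPKM. Over 20 macrophage and monocyte markers, 9 were higher and 11 lower (median -0.038). Without library 2, 16 were higher and 4 lower (median 0.073), and without control 0 the median was -0.28.

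Antibody genes were highest in Tdg-heterozygous library 1. Immunoglobulins are made by plasma cells, and each cell uses 1 variable segment per chain, so single segments vary with the clones present. Of 127 variable segments tested, 103 were higher and 24 lower (median 0.63), and for 8 all 3 Tdg-heterozygous values lay above all controls, beside 1.61% of all genes. The summed level was 819, 2418 and 234 FPKM in Tdg-heterozygous libraries, against 515, 481 and 224 FPKM in controls. Library 1 held most of it and library 2 was near the lowest control. Without library 2 the median was 1.11, and without library 1 it was 0.0076, so the difference rested on library 1. The segments with the smallest p did not rest on it alone. Igkv3-12 had 5.8, 11 and 6.62 FPKM in Tdg-heterozygous libraries, against 2.17, 0.65 and 0.482 FPKM in controls, and Ighv1-81 had 50.3, 80.8 and 13.9 FPKM, against 10.5, 0 and 0.719 FPKM. Ighv1-80 had 2.66, 4.93 and 2.8 FPKM, against 0.299, 1.23 and 0.468 FPKM in controls, and Igkv4-79 was at 1.33, 4.07 and 0.874 FPKM and listed at 0 in all controls. Segments of a family are alike, so reads may be split among them. The constant region of IgA, Igha, had 604, 1227 and 252 FPKM in Tdg-heterozygous libraries, against 502, 378 and 121 FPKM in controls, and the joining chain gene Igj 144, 339 and 86 FPKM, against 165, 79.9 and 33.8 FPKM. These 2 overlapped between the groups. Of 12 B and plasma cell markers 12 were higher (median 0.33, or 0.48 without library 2), with 0 whose groups did not overlap.

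Wnt target genes separated library 2 from the 5 others. Axin2, a feedback inhibitor of the pathway, had 122, 120.4 and 21.1 FPKM in Tdg-heterozygous libraries, against 110.3, 123 and 104 FPKM in controls. Notum, a secreted enzyme that inactivates Wnt, had 195, 202 and 8.53 FPKM, against 167, 137 and 201 FPKM in controls. The feedback gene Nkd1 had 104, 117 and 3.92 FPKM, against 104, 83.7 and 103 FPKM in controls, and Lef1, a transcription factor that acts with beta-catenin, 15.4, 13.3 and 0.622 FPKM, against 12.5, 10.9 and 17 FPKM. Libraries 0 and 1 lay within or just above the range of the controls for these genes. Over 22 Wnt feedback and pathway genes, 19 were lower (median -0.59), and without library 2 16 were higher and 6 lower (median 0.11), so the direction turned. The beta-catenin gene Ctnnb1 had 531, 654 and 579 FPKM in Tdg-heterozygous libraries, against 524, 542 and 563 FPKM in controls, and overlapped between the groups. Of 17 Wnt growth targets, 12 were lower (median -0.13, or -0.030 without library 2).

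A pair of progenitor genes differed outside library 2 as well. Sox9, a transcription factor of stem and Paneth cells, had 40.2, 36.9 and 30.7 FPKM in Tdg-heterozygous libraries, against 48.4, 47.9 and 53.3 FPKM in controls (log2 difference -0.47, or -0.36 without library 2). The growth gene Myc had 50.2, 39 and 34.3 FPKM, against 55, 50.9 and 56.1 FPKM in controls (log2 difference -0.40, or -0.28 without library 2). Each Tdg-heterozygous value of both genes lay below all controls. Smoc2, a secreted stem cell protein, had 81.9, 63.8 and 24.4 FPKM in Tdg-heterozygous libraries, against 85.5, 115 and 86.2 FPKM in controls, and library 0 was close to the lowest control. The stem cell receptor gene Lgr5 had 40.6, 37.1 and 13.5 FPKM in Tdg-heterozygous libraries, against 43.3, 54.1 and 35 FPKM in controls, and the stem cell factor gene Ascl2 36.5, 26.7 and 7.87 FPKM, against 29.3, 31.1 and 30.1 FPKM. Both overlapped between the groups, with library 2 lowest. Of 18 stem cell markers 11 were lower (median -0.42, or 0.012 without library 2).

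Most Paneth cell genes were lower in value, and most of all in library 2, but their summed level was not lowest there. The sum was 6573, 5618 and 7555 FPKM in Tdg-heterozygous libraries, against 13745, 6849 and 6713 FPKM in controls. Library 2 was thus above controls 1 and 2 in the sum. Paneth cells secrete lysozyme and alpha-defensins at the base of small intestinal crypts, and their genes can be switched on in adenomas of the colon, which normally has few such cells. Of 18 markers tested, 15 were lower (median -0.91), and 12 were lower without library 2 (median -0.42). For 4 markers all 3 Tdg-heterozygous values lay below all controls and for 0 above, beside 2.4% and 1.61% of all genes. These 4 were the defensin genes Defa17, Defa21 and Defa22, which are not separate observations, and Habp2. In Tdg-heterozygous libraries 0, 1 and 2, 10, 11 and 15 of the 18 markers lay below all controls, beside 22.9, 25.6 and 37.4% of all genes. The lysozyme gene Lyz1 had 1317, 651 and 527 FPKM in Tdg-heterozygous libraries, against 1826, 1526 and 1295 FPKM in controls, where library 0 was just above the lowest control. Defa21 had 30.01, 16.8 and 4.27 FPKM in Tdg-heterozygous libraries, against 49.1, 64.7 and 52.7 FPKM in controls (log2 difference -1.97, or -1.26 without library 2). Defa20 had 16.4, 9.45 and 2.71 FPKM, against 33.6, 29.6 and 21.9 FPKM in controls (log2 difference -1.72, or -1.1 without library 2). For these defensins every Tdg-heterozygous library was lower than all controls. Defa22 (51.7, 40.00 and 5.95 FPKM against 77.3, 74.3 and 59.6 FPKM in controls), Defa17 (19.9, 20.02 and 2.69 FPKM against 33.8, 25.2 and 22.2 FPKM) and Defa23 (14.9, 11.8 and 1.72 FPKM against 21.5, 30.6 and 21.9 FPKM) had the same order. Defa20 and Defa23 stand outside the marker list and were named for their size among genes whose groups did not overlap. Defa24, the most abundant, overlapped, with 907, 871 and 131 FPKM in Tdg-heterozygous libraries and 1608, 1022 and 889.8 FPKM in controls. Defensin genes are near-identical neighbours, so reads may be split among them and they do not count as separate observations. The protease gene Mmp7, which processes defensins and is also a Wnt target, had 784, 652 and 229 FPKM in Tdg-heterozygous libraries, against 716, 608 and 621 FPKM in controls, and was low in library 2 alone.

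The other genes with the largest negative differences belonged to several cell types. Only genes whose groups did not overlap could enter that ranking. Reg4, a secreted lectin of goblet and endocrine cells, had 226, 122 and 179.6 FPKM in Tdg-heterozygous libraries, against 548, 246 and 240.1 FPKM in controls (log2 difference -0.90, or -0.51 without control 0). Clps, the gene of pancreatic colipase, had 33.3, 19.6 and 29.4 FPKM, against 70.4, 50.8 and 41 FPKM in controls. Habp2, for a hyaluronan-binding protease and already counted in the Paneth cell list, had 22.4, 12.9 and 6.02 FPKM, against 24.6, 22.9 and 24.9 FPKM in controls. The matrix gene Prelp had 8.02, 6.72 and 2.25 FPKM, against 8.58, 15.8 and 11.2 FPKM in controls, and BC037034, a gene with no role given here, 2.3, 2.2 and 2.23 FPKM, against 2.7, 8.46 and 9.05 FPKM. In BC037034 control library 0 was close to the Tdg-heterozygous libraries.

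**Figure D3:**
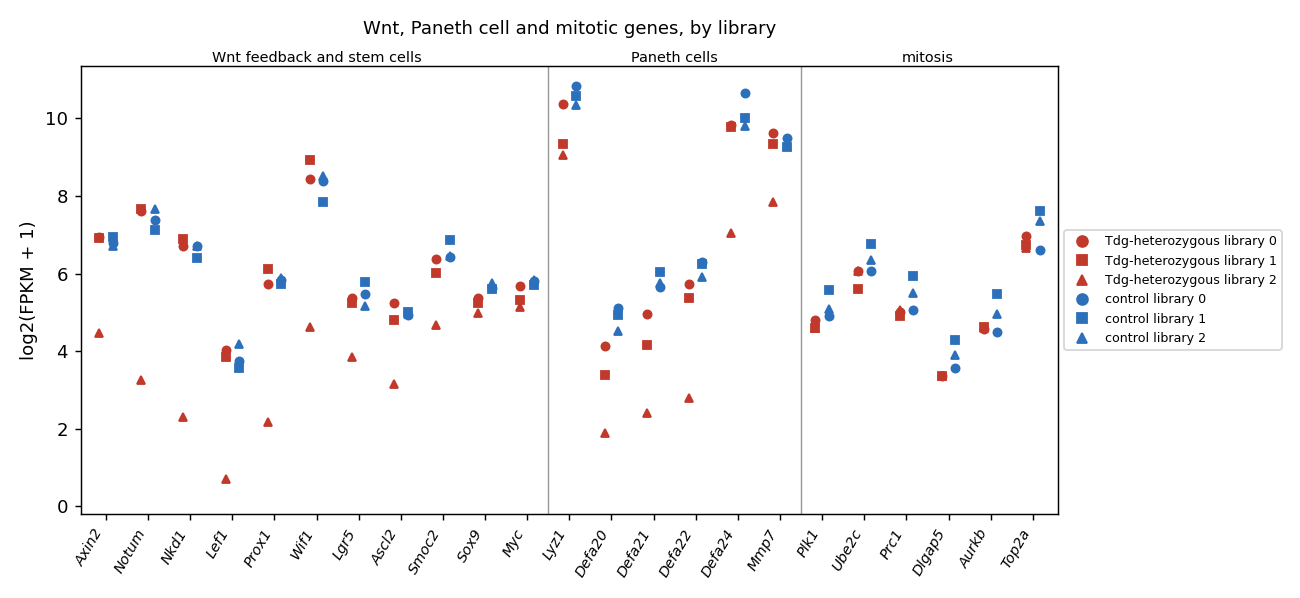
Level of Wnt feedback and stem cell genes, Paneth cell genes and mitosis genes in log2(FPKM + 1), Tdg-heterozygous libraries in red and controls in blue, with circles, squares and triangles for libraries 0, 1 and 2. The triangle of Tdg-heterozygous library 2 is far below the rest for Wnt feedback genes, whereas for mitosis genes the red points lie together and controls 1 and 2 are above them.

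Differentiated epithelium was high in 1 library of each group. The goblet cell mucin gene Muc2 had 181, 240.0 and 1142 FPKM in Tdg-heterozygous libraries, against 2167, 252 and 287 FPKM in controls, and the surface keratin gene Krt20 33, 59.9 and 1053 FPKM, against 285, 12.1 and 29.1 FPKM. Tdg-heterozygous library 2 and control library 0 held most of this RNA. Summed goblet cell markers were at 4512, 4444 and 16487 FPKM in Tdg-heterozygous libraries, against 19688, 4526 and 5290.5 FPKM in controls, and summed colonocyte markers at 809.5, 1107 and 4072 FPKM, against 2963, 580.0 and 747 FPKM. The goblet median was -0.13 with all libraries, -0.68 without Tdg-heterozygous library 2 and 0.45 without control 0. The colonocyte median was 0.28, -0.32 and 0.61 in the same order. Without control 1 it was -0.089. Neither list kept its sign when single libraries were left out. General epithelial markers had 13 of 14 higher (median 0.29), but 12 of 14 lower without library 2 (median -0.17), and Krt8, a keratin of simple epithelium, had 1129.9, 1026 and 4575 FPKM in Tdg-heterozygous libraries, against 1774, 937 and 1015 FPKM in controls.

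Antigen presentation was the remaining immune list with many members above the controls in library 0. Of 18 genes 13 were higher (median 0.22, or 0.0075 without control 0), and 14, 3 and 5 lay above all controls in Tdg-heterozygous libraries 0, 1 and 2, beside 19.2, 21.1 and 37% of all genes. Psmb9, a subunit of the immunoproteasome, had 24.2, 14.8 and 13.2 FPKM in Tdg-heterozygous libraries, against 10.1, 11.2 and 11.1 FPKM in controls. Type I interferon genes gave 21 of 27 higher (median 0.28, or 0.065 without control 0). Zbp1, a sensor of nucleic acids, was the member whose groups did not overlap, with 14, 16.2 and 16.2 FPKM in Tdg-heterozygous and 10.7, 13.1 and 11.5 FPKM in control libraries. Both counts of members that did not overlap, 1 in each list, are near what 4.01% of all genes gives.

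**Figure D4:**
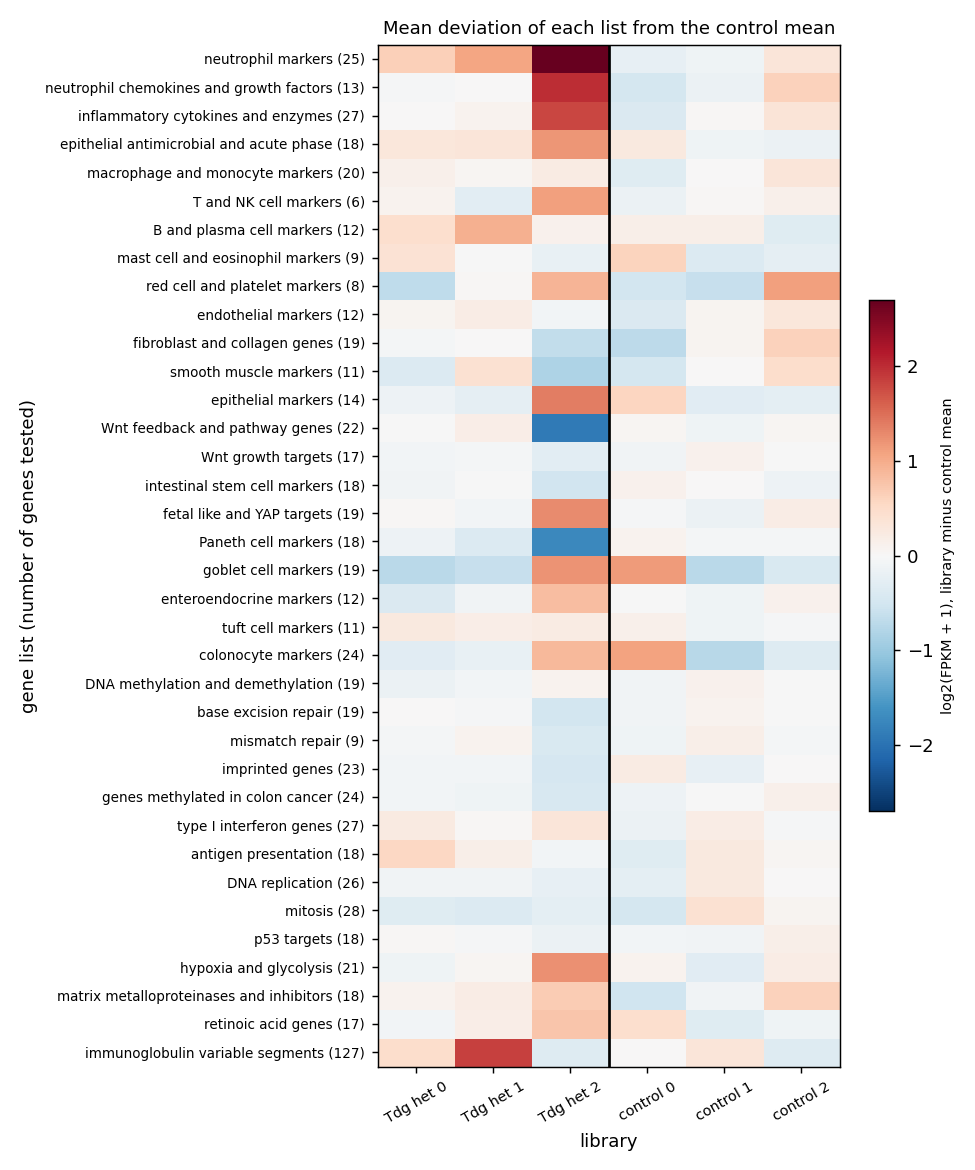
Mean deviation of each gene list from the mean of the controls, in log2(FPKM + 1), with 1 column per library, Tdg-heterozygous left of the line and controls right of it (red higher, blue lower). Neutrophil markers are red in all 3 Tdg-heterozygous columns, while Wnt feedback genes and hypoxia genes depart in library 2 alone.

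The other lists moved with single libraries or little. Hypoxia and glycolysis genes were higher in 21 of 21 (median 0.30), but 7 higher and 14 lower without library 2 (median -0.016). Fetal-like and YAP target genes had 14 of 19 higher (median 0.47, or -0.050 without library 2). In this list Ly6a, a surface antigen of the regenerating epithelium, had 575, 537 and 2961 FPKM in Tdg-heterozygous libraries, against 489.6, 388 and 411 FPKM in controls, and Msln, the gene of mesothelin, 8.51, 13.9 and 25.1 FPKM, against 5.34, 6.65 and 6.08 FPKM. For those 2 genes all 3 Tdg-heterozygous values lay above all controls, beside 1.61% of all genes. Stromal lists were lower in value, with 17 of 19 fibroblast and collagen genes (median -0.18) and 9 of 11 smooth muscle genes (median -0.28), and their medians were -0.0060 and 0.016 without library 2 and -0.61 and -0.57 without control 0. Endothelial markers had a median of 0.15, or -0.12 without control 0. Retinoic acid genes had 0.32, or 0.068 without library 2, and T and NK cell markers, of which 6 of 20 were tested, 0.52, or -0.22 without library 2. Enteroendocrine markers had -0.070, and from -0.33 to 0.35 when single libraries were left out, and p53 targets -0.090, from -0.21 to -0.027. The remaining medians were 0.093 for matrix metalloproteinases and inhibitors, 0.054 for mast cell and eosinophil markers, 0.039 for tuft cell markers and 0.020 for red cell and platelet markers. With single libraries left out they ran from -0.030 to 0.39, -0.26 to 0.37, -0.11 to 0.30 and -0.56 to 0.73 in the same order, so these lists had opposed libraries and no settled sign. In none of these lists did any member pass the test.

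The other genotypes, which are compared with the same 3 controls, also held a library like Tdg-heterozygous library 2 in S100a8 and Axin2. S100a8 had 1750.5, 123 and 196 FPKM in double-heterozygous and 197, 848 and 68.6 FPKM in Tet1-null libraries, beside 327, 712 and 3267 FPKM in Tdg-heterozygous and 109.8, 135 and 153 FPKM in control libraries. Axin2 had 62.9, 129 and 128 FPKM in double-heterozygous and 173, 9.98 and 96.1 FPKM in Tet1-null libraries. The double-heterozygous library 0 and the Tet1-null library 1 were thus high for S100a8 and low for Axin2 within their groups, and the controls held no such library. Mmp8 had 23.3, 1.2 and 2.43 FPKM in double-heterozygous and 1.47, 7.81 and 0.211 FPKM in Tet1-null libraries, and Defa21 60.5, 21.4 and 9.96 FPKM and 7.57, 0 and 13.4 FPKM. Defa21 was not low in double-heterozygous library 0, where 60.5 FPKM lay within the range of the controls, unlike in Tdg-heterozygous library 2. All double-heterozygous values of Mmp8 lay above the highest control, most of them by little, and the Tet1-null values did not. Lta4h had 54, 63.8 and 73.1 FPKM in double-heterozygous and 79.5, 93.7 and 64.3 FPKM in Tet1-null libraries, all below the lowest control. Upb1 had 2.71, 4.42 and 6.11 FPKM and 2.67, 1.86 and 4.92 FPKM, also below all controls. Wdr62 had 6.32, 5.15 and 6.56 FPKM in double-heterozygous and 4.27, 6.13 and 4.68 FPKM in Tet1-null libraries, which overlapped the controls.

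**Figure D5:**
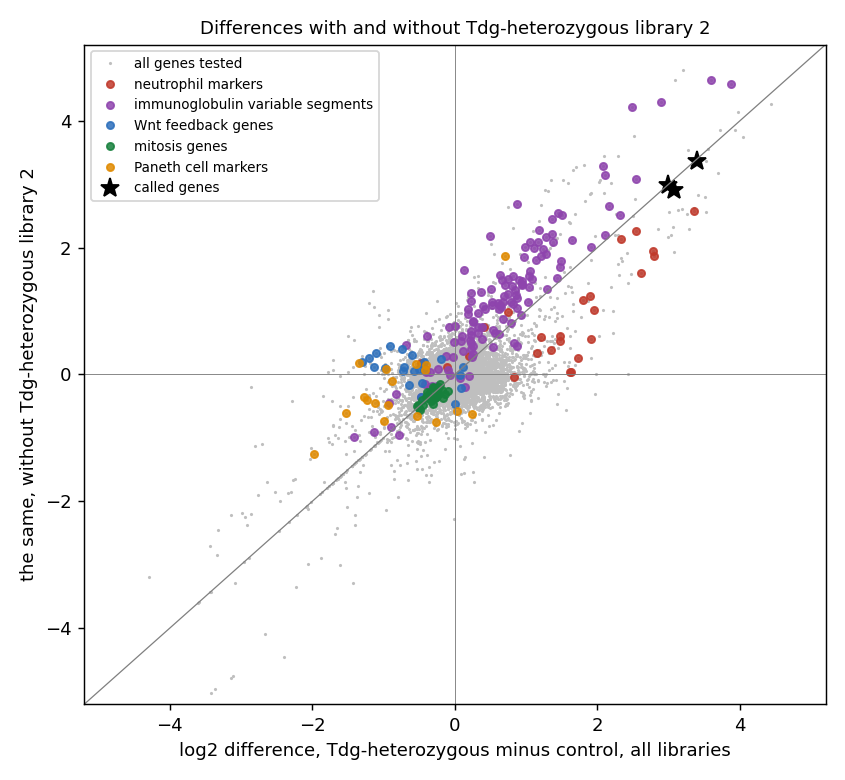
Log2 difference of each gene, Tdg-heterozygous minus control in log2(FPKM + 1), with all libraries (x axis) and without Tdg-heterozygous library 2 (y axis), with the called genes as stars and 5 gene lists coloured. Neutrophil markers stay mostly above 0 but lie mostly below the diagonal, most immunoglobulin segments lie above it, and Wnt feedback genes move from below 0 to about 0.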

How the data were processed

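Per the labels' protocols, RNA was extracted from dissected adenomas with TRIzol, 500 ng of total RNA went into TruSeq RNA V2 libraries, and single Illumina reads of 75 nt were aligned to mm10 with TopHat2. That kit does not mark strand. Per the submitters' processing notes, Cufflinks and Cuffdiff were used. Their versions, and how reads with several matches were counted, are not given in the sources used here. The authors deposited 1 table of FPKM, with 25705 genes and 3 columns per genotype. Columns are numbered 0 to 2 and were tied to genotypes only. Depth is unknown, and no intervals or floors were computed.

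From that table, log2(FPKM + 1) was fitted with limma 3.58.1 (trend) in R 4.3.3, with 4 group means over 12 libraries, for genes at 1 FPKM or more in at least 3 libraries. P-values were adjusted by Benjamini-Hochberg over 15150 genes and called under 0.05. A gene's groups do not overlap when all 3 values of one lie above or below all 3 of the other. An exact permutation test of 3 against 3 cannot go below a two-sided p of 0.1, so none is given. In simulated data of 15150 genes, FPKM + 1 was multiplied by 2, 4, 8 or 16, in 50 genes for each factor. The test found 11, 31, 40 and 44 of them in that order, and 2 other calls were false. For a gene of low FPKM such a factor is a larger change in FPKM itself. The deviations of the libraries were shuffled among columns, so those of Tdg-heterozygous library 2 need not fall in its own group. The counts therefore do not say how many such changes this comparison would find. Genes named are those called, the 12 largest positive and 12 largest negative differences among protein-coding genes at 5 FPKM or more in a group with groups that do not overlap, the 12 protein-coding genes with the smallest p, the genotype genes, tested genes within 2 Mb of Tdg (by counts) and, per list, up to 4 members with the largest moderated statistic or members picked for their role. The rankings of protein-coding genes and the count within 2 Mb of Tdg left out symbols made of Gm and a number or ending in Rik. Members and lists were chosen with earlier results of these data known. Annotation and sequences are from GENCODE M21 (GRCm38), which matched 25119 of the 25705 IDs, and pseudogenes were aligned to their parents with a script. The sequence of Gm22692 is not reported here.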

Additional observations from a re-analysis of the deposited data

How the results depend on the processing

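Gm9855 and Gm15920 were called under every setting run, except that Gm9855 is lost with a filter of a mean of at least 5 FPKM, which it does not reach, and both are left out of a fit of protein-coding genes. The number of calls was 1 with that filter, 6 when the fit held only the 6 libraries and 0 with protein-coding genes only, a setting chosen after seeing the data, and it ran from 2 to 4 when libraries were left out one at a time. It was 3 under a pseudocount of 0.1 and under the 3 other scalings (median ratio, same total, quantile), with the same genes. Gm22692 lost its call in 11 settings. Of the protein-coding genes, 69 had an unadjusted p under 0.05 in the limma fit of all genes. Genes whose groups do not overlap numbered 366 with the filter on the mean, 568 with median-ratio scaling and 435 with the same total. Scaling to the same total moved the median of all genes to -0.10, from -0.014.

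Of 1823 values of named genes under other settings, 41 changed sign. With library weights the log2 difference was 0.015 for Mbd4, 0.032 for Ifitm1, -0.017 for Csf3, -0.19 for Il1b, -0.81 for Il6, 0.011 for Mmp7, -0.088 for Epcam, 0.013 for Apex1 and 0.11 for Rhox5. With the same total it was -0.023 for Apc, and with quantile scaling -0.0082 for Ctnnb1. Leaving out 1 library at a time gave a change of sign for Ndufa12 (-0.20 to 0.0037), Tet2 (-0.071 to 0.31), Apc (-0.070 to 0.30), Mbd4 (-0.28 to 0.081), Csf3r (-0.042 to 1.27), Padi4 (-0.73 to 0.087), Ifitm1 (-0.85 to 0.18), Csf3 (-0.13 to 1.41), Il1b (-0.36 to 1.94), Il6 (-0.82 to 1.17), C1qa (-0.997 to 0.0038), Cd68 (-0.26 to 0.19), Axin2 (-1.13 to 0.11), Notum (-1.95 to 0.26), Nkd1 (-2.1 to 0.20), Lef1 (-1.56 to 0.10), Ascl2 (-0.99 to 0.050), Mmp7 (-0.74 to 0.14), Krt20 (-0.088 to 2.7), Muc2 (-1.37 to 0.45), Cdx2 (-1.04 to 0.52), Epcam (-0.15 to 0.39), Krt8 (-0.14 to 0.93), Apex1 (-0.47 to 0.16) and Rhox5 (-0.79 to 0.42). List medians changed sign in 47 of 569 cases, 13 of them without Tdg-heterozygous library 2. The spread of a list was the SD of its library scores, the larger of the Tdg-heterozygous and control values, with every library included. A library that stands apart widens its own yardstick. The Wnt feedback median, -0.59 and 0.11 without Tdg-heterozygous library 2, thus counts as within the spread. Medians moved beyond the spread in 8 cases. These were T and NK cell markers (-0.22) and stem cell markers (0.012) without Tdg-heterozygous library 2, tuft cell markers with the filter on the mean (-0.17), without Tdg-heterozygous library 1 (0.30) and without control 2 (-0.11), interferon genes without control 0 (0.065), and the list of Xist and Y-linked genes without Tdg-heterozygous library 1 (-1.12) and without control 0 (1.31). The medians of matrix metalloproteinases (-0.01), red cell markers (-0.08) and tuft cell markers (-0.04) turned with the same total. The causes were not tested.

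No paired analysis was possible because the table's columns are numbered 0 to 2 and cannot be tied to the labelled replicate numbers; the fit with a replicate block was not run. Depth, the repeated sequences behind all 3 called genes and the 3 libraries per group limit these results.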
